A study of Mus musculus with 51 samples.

Results

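Tph1 encodes tryptophan hydroxylase 1, the enzyme that adds a hydroxyl group to tryptophan in the first and rate-limiting step of serotonin synthesis outside the brain. It was taken as the row Tph1 of the deposited count tables, 1 of 48321 gene symbols, and is described here in all 51 libraries. Tph1 was chosen by its measured differences between knockouts and controls, between diets and in the double knockout, so its values in those comparisons are given as a description, with a standard error (SE) and no test. Tests were run on the floxed control lines against each other and on the other genes of the pathway. The choice of Tph1 used the control values too, and the gene lists were set with earlier results of these data known. These tests thus give no independent support.

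Each library was a QuantSeq 3′ tag library from whole mouse gastrocnemius, a mixed calf muscle, and came from 1 animal. By its title the study is about BMAL1, HIF (the hypoxia-inducible factors) and daily glucose metabolism in obese mice. In batch 1 there were 7 controls (Bmal1fx/fx) and 5 Bmal1KO animals on high-fat diet, and 4 controls (Bmal1fx/fx) and 3 Bmal1KO animals on regular chow. Batch 2 was all on high-fat diet and held 8 controls (Bmal1fx/fx) with 4 Bmal1KO animals, 6 controls (Vhlfx/fx) with 4 VhlKO animals, and 6 controls (Bmal1fx/fx;Vhlfx/fx) with 4 Bmal1KO;VhlKO animals, called double knockouts here. Every control thus carried the floxed alleles of its own line. The design text calls the Bmal1 knockout specific to skeletal muscle; the sources used here do not give the Cre driver, the deleted exons, the animals' age or the hour of harvest.

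To make serotonin, a tryptophan hydroxylase, which needs tetrahydrobiopterin as a cofactor, makes 5-hydroxytryptophan, and aromatic amino acid decarboxylase (Ddc) turns it into serotonin. Tph1 is known from enterochromaffin cells of the gut, the pineal gland and mast cells and Tph2 from neurons of the raphe. Serotonin is taken up by the transporter SERT (Slc6a4) and broken down by the monoamine oxidases Maoa and Maob. BMAL1 pairs with CLOCK on E-boxes to drive daily transcription, and VHL marks HIF subunits for breakdown, so that HIF stays active where VHL is lost.

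Tph1 (ENSMUSG00000040046.14) lies on the minus strand of chromosome 7 from 46644641 to 46672537 on GRCm38, in GENCODE M21. The longest annotated transcript, Tph1-201, spans the whole gene, and a second coding transcript, Tph1-202, runs from 46647130 to 46667377, so that both the starts and the 3′ ends differ. RefSeq promoters were given for both starts, and the 250 bases before each are shown because BMAL1 and HIF, the factors perturbed here, bind short DNA motifs. They are written 5′ to 3′ on the strand of the gene, GRCm38.p6, with matches to the core of the HIF response element (ACGTG or GCGTG, either strand) in capitals.
Start of Tph1-201, chr7:46672538-46672787: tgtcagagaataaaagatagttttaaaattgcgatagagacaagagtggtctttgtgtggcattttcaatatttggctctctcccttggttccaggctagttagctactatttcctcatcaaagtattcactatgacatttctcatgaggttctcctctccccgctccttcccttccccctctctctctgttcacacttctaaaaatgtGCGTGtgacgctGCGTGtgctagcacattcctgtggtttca
Start of Tph1-202, chr7:46667378-46667627: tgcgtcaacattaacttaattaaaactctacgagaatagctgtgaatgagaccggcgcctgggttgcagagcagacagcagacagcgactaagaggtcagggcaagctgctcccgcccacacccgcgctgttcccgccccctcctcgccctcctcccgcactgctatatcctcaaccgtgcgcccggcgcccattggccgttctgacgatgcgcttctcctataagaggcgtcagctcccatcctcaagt
The window before the start of Tph1-201 held the HIF core motif GCGTG at 2 places, at positions -41 and -29 counted from the first transcribed base, and the other window held none. Neither window held the E-box CACGTG, whose letters overlap with the HIF core. Of 32851 RefSeq promoter windows of this length, 38.6% held a HIF core and 6.02% an E-box, so a HIF core match was common. A match of letters is a description of the sequence and not a binding site, and 3′ tags do not tell which start was used.

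The deleted genes came first. Arntl, the gene of BMAL1, was at 7.41 ± 1.83 CPM (mean ± SD, n = 5; CPM, the tags of a gene relative to the TMM-scaled size of its library) in Bmal1KO of batch 1 on high-fat diet and at 15.0 ± 2.65 (n = 7) in their controls. By edgeR's quasi-likelihood test with Benjamini-Hochberg adjustment over all genes, Arntl fell there (log2 fold change -1.02 ± 0.22 SE, adjusted p = 0.0025) and also in double knockouts (-0.48 ± 0.13, adjusted p = 0.0021). It did not pass in Bmal1KO on chow (-0.91 ± 0.28, adjusted p = 0.082) or in Bmal1KO of batch 2 (-0.24 ± 0.13, adjusted p = 0.24). Vhl fell in VhlKO (-0.85 ± 0.30, adjusted p = 0.022) and in the double knockout (-0.78 ± 0.26, adjusted p = 0.018). A 3′ tag may lie outside the deleted part, so neither gene checks the labels. Depth ran from 6945247 to 14717795 counts per library, and the mitochondrial share of counts from 16.6% to 42.5%, lowest in the double knockouts (16.6 to 23.1%). All 7 skeletal muscle markers were detected in every library, with summed levels of 64510 to 121300 CPM.

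Tph1 was a trace transcript in muscle of floxed controls on high-fat diet, and it was abundant only in the groups without Vhl. In batch 2, the 8 controls (Bmal1fx/fx) had from 0.284 to 1.41 CPM, with a median of 0.729. The 6 controls (Vhlfx/fx) had from 0.737 to 1.66 CPM (median 0.804), and the 6 controls (Bmal1fx/fx;Vhlfx/fx) from 0.443 to 1.11 CPM (median 0.966). These levels rest on 3 to 17 tags a library, so counting error alone is large in the controls. The control lines were compared with each other, and none of the 3 log2 differences passed by edgeR. The choice of Tph1 did not set control lines against each other, but it used these control values, so the tests are not independent of it. The Vhl line minus the Bmal1 line was 0.19 ± 0.33 SE (adjusted p = 0.89; 0.642% of all genes called), the double line minus the Bmal1 line 0.04 ± 0.32 (adjusted p = 0.98; 1.06% called) and the double line minus the Vhl line -0.14 ± 0.34 (adjusted p = 0.87; 6.82% called).

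In VhlKO the 4 animals had 70.7, 72.4, 59.1 and 51.8 CPM, from 495 to 940 tags. Every VhlKO library was far above every control of its line, and the ranges did not come near each other. The mean was 63.5 ± 9.79 CPM (SD, n = 4) against 0.951 ± 0.354 (n = 6), 66.8-fold higher, and the fitted log2 fold change was 6.06 ± 0.20. Among 13093 tested genes this was rank 9 from the highest. In a whole-muscle sample, more cells that carry a transcript and more of it per cell cannot be told apart.

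In the double knockout the 4 animals had 58.5, 94.7, 108.7 and 105.1 CPM, from 534, 1301, 1410 and 1343 tags. Animal 1 was the lowest and was also the shallowest library of the series, and its level lay within the VhlKO range, while the other 3 were above all VhlKO libraries. The mean was 91.8 ± 22.9 CPM against 0.862 ± 0.270 in controls (n = 6), 106.5-fold higher, with a log2 fold change of 6.74 ± 0.19 and rank 4 of 13093. The double knockout mean was 1.45-fold the VhlKO mean, and the double knockout effect minus the VhlKO effect was 0.68 ± 0.38 on the log2 scale; without animal 1 it was 0.83, and without control animal 1 of the Vhl line, the highest of its group, 0.46.

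Loss of Bmal1 alone went with a smaller difference that was seen in both batches. In batch 2 the 4 Bmal1KO animals (numbers 6 to 9) had 4.11, 2.81, 3.44 and 3.32 CPM. Each was above the highest of their 8 controls. The mean was 3.42 ± 0.538 CPM, 4.17-fold that of controls (0.821 ± 0.345), with a log2 fold change of 2.03 ± 0.26 and rank 40 of 13093. In batch 1 on high-fat diet the 5 Bmal1KO animals had 2.58, 2.11, 3.00, 1.81 and 2.58 CPM. The 7 controls ran from 0.307 to 1.70 CPM (median 1.07), so here too the groups did not overlap. The means were 2.41 ± 0.464 and 0.994 ± 0.514 CPM, 2.43-fold apart, with a log2 fold change of 1.26 ± 0.33 and rank 103 of 12762.

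On chow Tph1 was higher to begin with, and knockouts and controls overlapped. The 4 chow controls had 2.09, 1.36, 2.63 and 2.54 CPM, and the 3 Bmal1KO animals 2.16, 5.63 and 3.36 CPM. Of the knockouts, 1 was inside the control range and the other two were above it. The means were 3.72 ± 1.76 and 2.16 ± 0.580 CPM, with a log2 fold change of 0.79 ± 0.40, which came to 0.36 without knockout animal 2. In 2 chow libraries the 6 lymphocyte markers were summed to 35.9 CPM (control animal 2) and 48.8 CPM (knockout animal 1), against at most 2.54 in all other libraries of the series; these were the control and the knockout with the lowest Tph1 on chow. Without control animal 2 the chow fold change was 0.62, and without knockout animal 1 it was 1.06.

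High-fat diet went with less Tph1 in both genotypes of batch 1. Chow controls had 2.17-fold the mean level of high-fat controls, and the log2 difference of high-fat diet from chow was -1.09 ± 0.36 in controls. In knockouts it was -0.62 ± 0.38, with -0.21 without chow knockout animal 2 and -0.89 without animal 1. Ranges of the diet groups overlapped in each genotype. The diet difference in knockouts minus that in controls was 0.47 ± 0.52, an SE larger than the value, with 0.88 without animal 2 and 0.20 without animal 1, the one with lymphocyte markers.

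**Figure D1:**
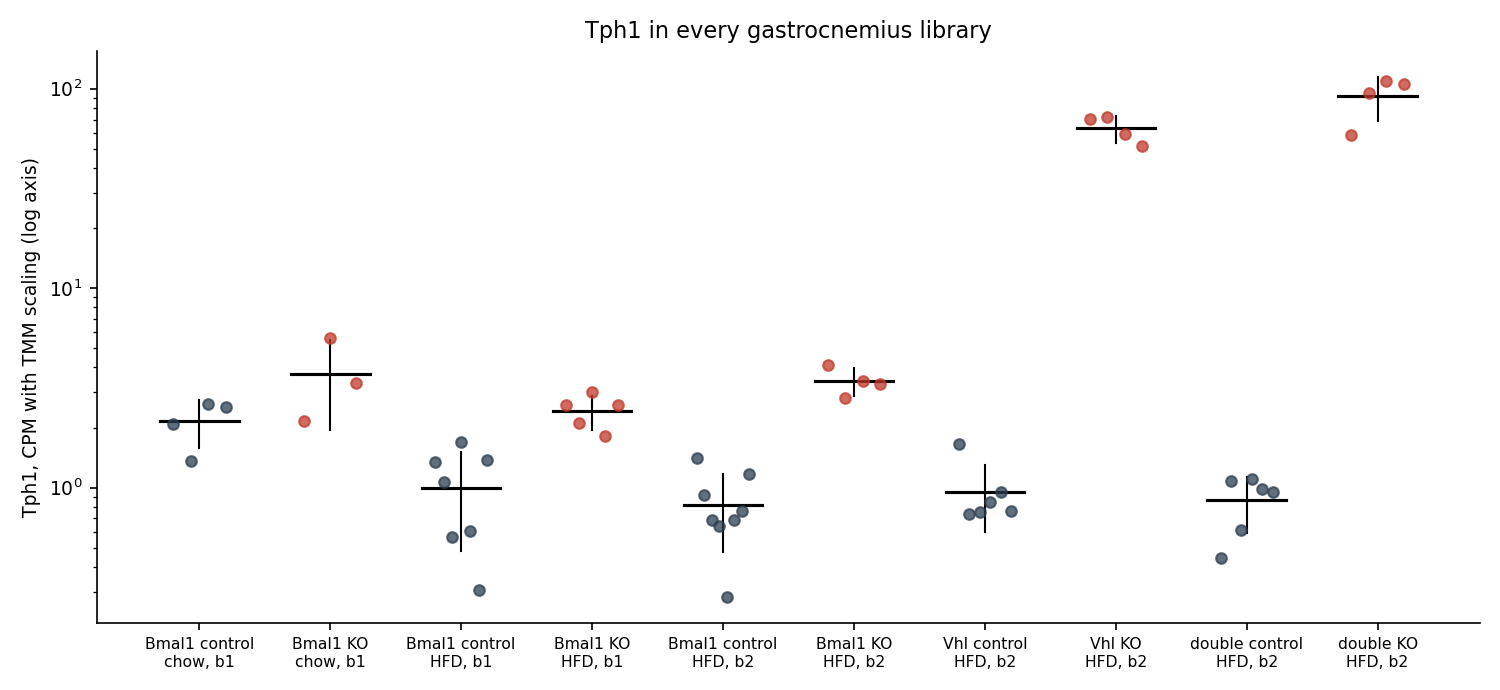
Tph1 level in each of the 51 libraries, in CPM with TMM scaling on a log axis; dark points are floxed controls, red points knockouts, horizontal lines group means and vertical lines ± 1 SD (b1 and b2, batches 1 and 2; HFD, high-fat diet). VhlKO (51.8 to 72.4 CPM) and double knockout libraries (58.5 to 108.7 CPM) stand apart from all others, of which the highest is 5.63 CPM.

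Ordered from lowest to highest mean, the 10 groups were the batch 2 controls of the Bmal1 line, the double line and the Vhl line, batch 1 controls on high-fat diet, chow controls, Bmal1KO on high-fat diet in batch 1, Bmal1KO in batch 2, Bmal1KO on chow, VhlKO and the double knockout. Each group's range overlapped with that of the next in order, except between Bmal1KO on chow and VhlKO, whose means were 17.1-fold apart. Levels of batch 1 and batch 2 come from separate tables that were scaled apart, so the order across batches carries that limit. Relative spread between animals was smallest in VhlKO (SD 15.4% of the mean) and in Bmal1KO of batch 2 (15.7%), and largest in batch 1 controls on high-fat diet (51.7%).

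Whether losing Bmal1 and Vhl together gave more or less Tph1 than the losses one by one depended on the scale. On the log2 scale the effects of Bmal1 loss and Vhl loss summed to 8.09, and the double knockout, at 6.74, differed from the sum by -1.35 ± 0.46. In terms of fold, the product of the 2 folds was 278, and the 106.5-fold of the double knockout was 38.3% of it. On the CPM scale the gain over controls was 2.6 ± 0.296 (SE) in Bmal1KO and 62.5 ± 4.90 in VhlKO, which sum to 65.1. The double knockout gained 90.9 ± 11.5 CPM, above the sum by 25.8 ± 12.5, and by 36.8 without double knockout animal 1. The departure from additivity thus had opposite signs on the log2 and CPM scales.

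**Figure D2:**
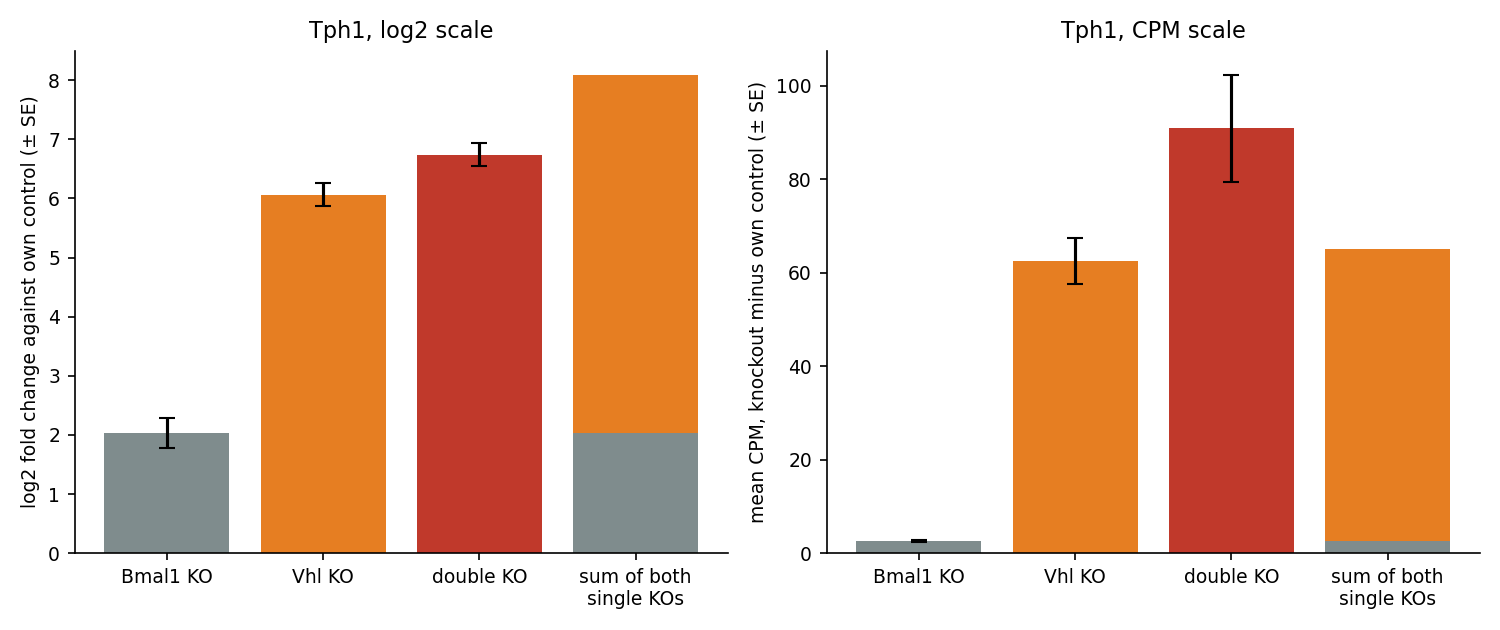
Tph1 in the 3 knockouts of batch 2 against their own floxed controls, as log2 fold change ± SE (left) and as difference of mean CPM ± SE (right), with the effects of both single knockouts stacked in the last bar. The double knockout stands below the stacked bar on the log2 scale (6.74 against 8.09) and above it on the CPM scale (90.9 against 65.1).

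Of the other genes that make, carry or break down serotonin, the log2 changes largest in size among the 7 tested were that of Maob in VhlKO (-1.16) and that of Ddc in the double knockout (1.86), beside 6.06 and 6.74 for Tph1. In Bmal1KO on chow Maob differed by more than Tph1 (-1.22 against 0.79). The list held 14 genes, of which 4 passed the low-count filter in batch 1 and 7 in batch 2; Aanat and Asmt, which make melatonin from serotonin in the pineal gland, had no count in any library. In VhlKO 0 of 7 rose and 1 fell, where over all genes 17.7% rose and 19.5% fell; the median log2 change of the list was -0.13 against 0.01 over all genes. In the double knockout 1 of 7 rose and 3 fell, beside 17.4% and 18.1% of all genes, with a median of -0.24 against 0.01. With no scaling, which makes 5815 of 6499 called genes higher in VhlKO (2320 of 4876 with TMM) and 6230 of 7008 in the double knockout (2272 of 4638), both list medians turned positive (0.22 and 0.11) and 1 and 2 of the 7 rose. In Bmal1KO of batch 2 none rose and 2 of 7 fell (6.94% and 6.96% of all genes; median -0.52 against -0.01). In batch 1, 1 of 4 fell in Bmal1KO both on high-fat diet, where 3.82% of all genes rose and 5.18% fell, and on chow, where 1.55% rose and 2.29% fell. For diet none of the 4 passed in controls, where 2.37% of all genes were called in either direction, or in knockouts, where 3.28% were.

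Tph2, the neuronal tryptophan hydroxylase, had no count in any of the 7 chow libraries and at most 2.26 CPM elsewhere. Its log2 change did not pass in VhlKO (-1.01 ± 0.94, adjusted p = 0.43) or in the double knockout (0.71 ± 0.88, adjusted p = 0.57). Ddc, which carries out the step after Tph1, rose in the double knockout from 0.439 ± 0.281 to 1.69 ± 0.685 CPM (log2 1.86 ± 0.47, adjusted p = 0.0014). The highest of 6 controls (0.957 CPM) was just above the lowest of 4 double knockouts (0.939 CPM). Ddc passed the low-count filter in batch 2 only, with at most 29 counts in any library. The double knockouts, where its level was high, may have carried it through that filter, so its call there is not an independent result. In VhlKO Ddc was at 0.708 ± 0.149 CPM against 0.364 ± 0.383 and did not pass (0.99 ± 0.56, adjusted p = 0.17). Slc6a4, the serotonin transporter, was at 1.49 ± 0.718 CPM in the double knockout and 0.640 ± 0.236 in its controls and did not pass (1.20 ± 0.51, adjusted p = 0.064).

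Maob, a mitochondrial monoamine oxidase, fell in every knockout. On high-fat diet in batch 1 the 5 Bmal1KO libraries had 6.52 to 11.5 CPM and the 7 controls 14.4 to 19.7 (log2 -1.04 ± 0.15, adjusted p = 6.3e-06). On chow the change was -1.22 ± 0.21 (adjusted p = 0.00016), and in Bmal1KO of batch 2 it was -1.24 ± 0.12 (adjusted p = 6.5e-12). In VhlKO Maob had 7.01 to 8.45 CPM against 14.7 to 20.4 in controls (-1.16 ± 0.13, adjusted p = 2.2e-10). In the double knockout it had 4.70 to 7.67 CPM against 16.2 to 23.3 (-1.73 ± 0.13, adjusted p = 6.8e-16). Maob fell under each scaling that was tried. In all 5 comparisons its ranges in knockouts and controls stayed apart. The share of all genes whose ranges did so was not counted, so this is a description. The double knockout effect on Maob was lower than that of Bmal1 loss by 0.49 ± 0.17 (adjusted p = 0.036; 16.7% of all genes called) and than that of Vhl loss by 0.58 ± 0.18 (adjusted p = 0.031; 8.56% called), and both of these calls were lost with no scaling (adjusted p = 0.4 and 0.054) and in 11 of 22 and 6 of 20 fits that each leave out 1 library.

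Maoa, the oxidase with the higher affinity for serotonin, fell in Bmal1KO of batch 2 (-0.53 ± 0.18, adjusted p = 0.037) and in the double knockout (-0.53 ± 0.19, adjusted p = 0.027), in neither with no scaling (adjusted p = 0.095 and 0.41) and not in 7 of 12 and 3 of 10 fits that leave out 1 library, and did not pass in VhlKO (-0.11 ± 0.19, adjusted p = 0.7). Dnajc12, a co-chaperone of the aromatic amino acid hydroxylases, fell in the double knockout from 10.8 ± 1.26 to 6.36 ± 1.10 CPM (-0.76 ± 0.14, adjusted p = 1.4e-05). None of the 14 serotonin receptor genes passed the low-count filter in either batch. The most counts of any receptor in 1 library were 20, for Htr5b, and Htr1a, Htr3b and Htr5a had none in the series.

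Of the enzymes of tetrahydrobiopterin, the cofactor that Tph1 needs, none rose in any knockout with TMM scaling. The list held 8 genes, of which 6 passed the filter. None of the 6 rose and 1 fell in VhlKO, 2 fell in the double knockout and 1 in Bmal1KO of batch 2, and none passed in the Bmal1KO comparisons of batch 1. Over all genes 17.7% rose and 19.5% fell in VhlKO, 17.4% and 18.1% in the double knockout and 6.94% and 6.96% in Bmal1KO of batch 2, so that 1 of 6 in VhlKO is near the share of all genes. The median log2 changes in VhlKO and the double knockout were -0.17 and -0.23, against 0.01 over all genes in both. With no scaling these medians were 0.18 and 0.13, and 2 of the 6 rose in each, so the direction of the list depends on the scaling. Gch1, GTP cyclohydrolase, which starts the synthesis, had 3.70 ± 0.450 CPM in VhlKO against 3.20 ± 1.29 in controls (0.21 ± 0.23, adjusted p = 0.51) and did not pass in the double knockout either (-0.45 ± 0.23, adjusted p = 0.13). Spr, sepiapterin reductase of the last step, fell in the double knockout from 27.6 ± 3.40 to 15.4 ± 2.19 CPM (-0.84 ± 0.10, adjusted p = 2.6e-09). It fell by less in Bmal1KO of batch 2 (-0.31 ± 0.09, adjusted p = 0.018; with no scaling 0.12) and in VhlKO (-0.24 ± 0.10, adjusted p = 0.048), where RLE scaling gave adjusted p = 0.052 and no scaling the other sign, 0.10. With 1 library left out these 2 calls were lost in 2 of 12 and 9 of 10 fits. Qdpr, which recycles the cofactor, fell in the double knockout (-0.32 ± 0.10, adjusted p = 0.012), a call lost without double knockout animal 4 (-0.25), and with no scaling its change was 0.04.

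Of 17 genes of tryptophan uptake and of the kynurenine route, which uses tryptophan for other products, 9 passed the filter in batch 1 and 7 in batch 2. In VhlKO 2 of 7 rose and 4 fell, in the double knockout 1 rose and 4 fell, and in Bmal1KO of batch 2 1 rose and 2 fell. Over all genes 17.7% rose and 19.5% fell in VhlKO, 17.4% and 18.1% in the double knockout, and 6.94% and 6.96% in Bmal1KO. The list medians were -0.54, -0.38 and -0.23 (0.01, 0.01 and -0.01 over all genes), and in the double knockout with no scaling 2 rose and none fell. In batch 1, 1 of 9 rose in Bmal1KO on high-fat diet (3.82% of all genes) and none passed on chow or for diet. Slc7a5, the LAT1 transporter that carries tryptophan and other large neutral amino acids, rose in VhlKO from 0.880 ± 0.307 to 3.17 ± 1.24 CPM (1.82 ± 0.31, adjusted p = 6.4e-06), and it rose in double knockouts from 1.16 ± 0.275 to 2.56 ± 0.342 CPM (1.14 ± 0.30, adjusted p = 0.0019). In both lines every knockout was above every control for Slc7a5, though the share of all genes with groups apart was not counted. Slc3a2, its heavy chain partner CD98, rose in VhlKO (0.45 ± 0.10, adjusted p = 0.00046) and did not pass in the double knockout (-0.08 ± 0.10, adjusted p = 0.57). The effect in the double knockout minus that in VhlKO was -0.53 ± 0.15 for Slc3a2 (adjusted p = 0.015), a call lost without VhlKO animal 4 (-0.45). Slc16a10, an aromatic amino acid carrier, fell in VhlKO (-0.68 ± 0.11, adjusted p = 1.6e-06). It also fell in the double knockout (-0.50 ± 0.10, adjusted p = 0.00013) and in Bmal1KO of batch 2 (-0.36 ± 0.10, adjusted p = 0.0074). Slc7a8, also of this list, fell in the double knockout (-0.83 ± 0.25, adjusted p = 0.0073) and in Bmal1KO of batch 2 (-0.87 ± 0.24, adjusted p = 0.0088). In VhlKO Slc7a8 did not pass (0.20 ± 0.25, adjusted p = 0.57). Got2, mitochondrial aspartate aminotransferase, which also acts on kynurenine, rose in Bmal1KO of batch 2 (0.39 ± 0.07, adjusted p = 9.1e-06). It fell in VhlKO (-0.63 ± 0.07, adjusted p = 9.5e-10) and in the double knockout (-0.38 ± 0.07, adjusted p = 2.4e-05).

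**Figure D3:**
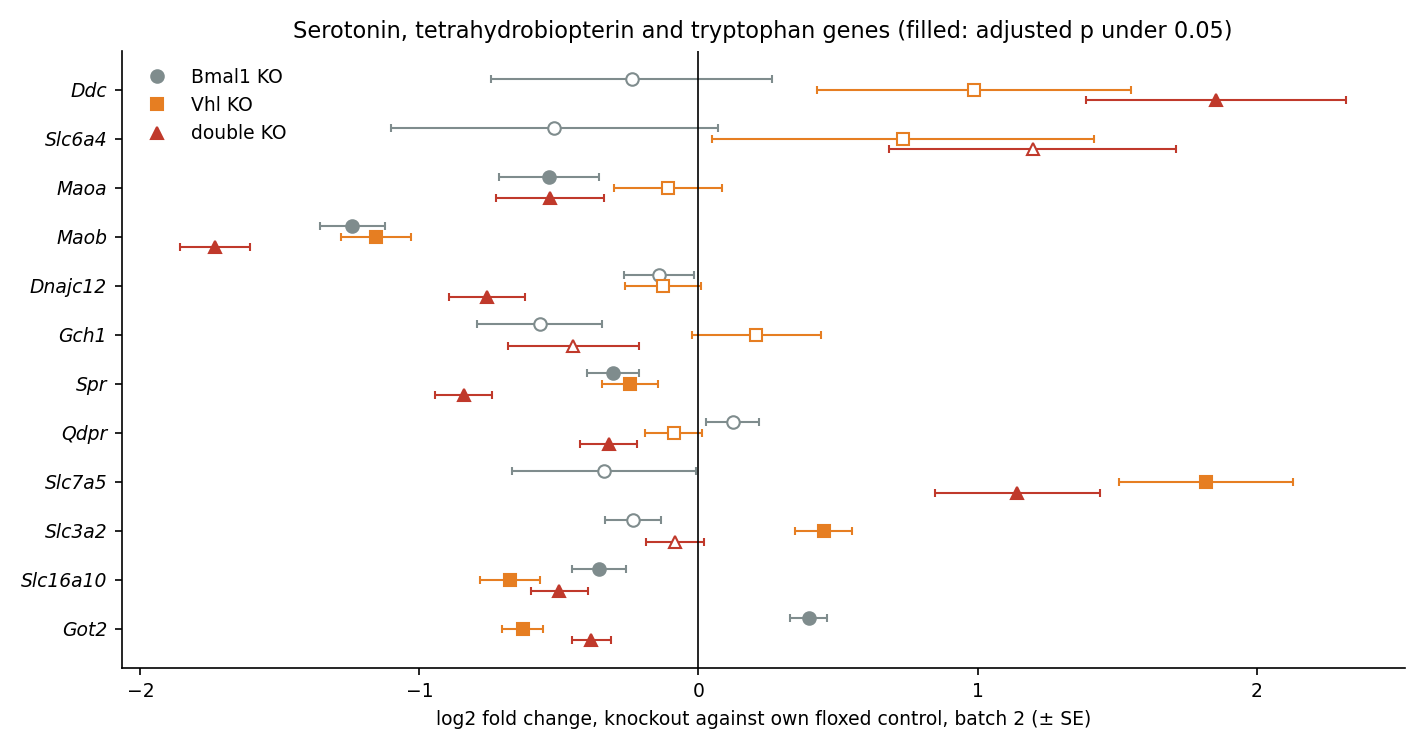
Log2 fold change ± SE of named genes of serotonin handling, tetrahydrobiopterin and tryptophan uptake in the 3 knockouts of batch 2, each against its own floxed controls; filled symbols passed at an adjusted p under 0.05. Maob is lower in all 3 knockouts (-1.24, -1.16 and -1.73) and Slc7a5 higher in both knockouts of Vhl (1.82 and 1.14).

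None of the genes of these lists passed for the departure of the double knockout from the sum of the single knockouts, where 3.79% of all genes were called, or for diet by genotype, where 0% of genes passed by edgeR (575 genes had an unadjusted p under 0.05, and DESeq2 called 3).

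Mast cells are known to hold Tph1, and their markers moved with the groups without Vhl. Of 10 markers 6 passed the filter. In VhlKO 4 of 6 rose (17.7% of all genes rose; median log2 change 0.73 against 0.01), and in the double knockout 6 of 6 rose (17.4% of all genes; median 1.36 against 0.01), while none passed for Bmal1 loss in either batch or for diet. With no scaling 6 rose in each. All 4 calls in VhlKO, Cpa3, Tpsb2, Cma1 and Mcpt4, were lost without VhlKO animal 3, the VhlKO library with the highest marker sum (50.5 CPM). The list median for high-fat diet against chow was 0.74 in controls and 0.81 in knockouts (-0.01 over all genes in both), beside 0.73 in VhlKO, while the Tph1 diet differences had the other sign (-1.09 and -0.62). Cpa3, mast cell carboxypeptidase, rose in VhlKO from 4.39 ± 2.04 to 7.15 ± 1.72 CPM (0.67 ± 0.24, adjusted p = 0.021), and lost that call in 4 of 10 fits that each leave out 1 library (values of 0.51 to 0.91), as Mcpt4 did in 5, Cma1 in 2 and Tpsb2 in 1. Hdc, which makes histamine, rose in the double knockout from 1.39 ± 0.512 to 4.64 ± 1.14 CPM (1.75 ± 0.26, adjusted p = 3.2e-07). The other 4 markers, Tpsab1, Fcer1a, Ms4a2 and Mrgprb2, were at most 0.732 CPM in any library and each was at 0 in at least 1.

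The summed level of the 10 markers ran from 13.4 to 29.9 CPM in controls (Vhlfx/fx) and from 19.2 to 50.5 in VhlKO. In controls of the double line it ran from 11.1 to 19.1 and in double knockouts from 33.9 to 37.5 CPM. The mean sum was 15.0 CPM in controls of the double line, against 20.4 and 19.6 in those of the Bmal1 and Vhl lines. In double knockouts it was 35.2 and in VhlKO 33.75 CPM. The list median of the double line controls was -0.45 against the Bmal1 line, with 1 of 6 called lower (0.512% of all genes). Against the Vhl line it was -0.49, with none called. Animal by animal, the VhlKO libraries with 70.7, 72.4, 59.1 and 51.8 CPM of Tph1 had marker sums of 24.3, 19.2, 50.5 and 41.0 CPM. The 2 VhlKO libraries with more Tph1 were thus those with the lower marker sums, and within the range of their controls. Tph1 divided by the marker sum was 1.17 to 3.76 in VhlKO and 1.72 to 2.99 in the double knockout, against 0.0129 to 0.0956 in the controls of batch 2. In Bmal1KO of batch 2 that ratio was 0.133 to 0.228, with marker sums (15.1 to 25.0 CPM) that overlapped with those of controls (18.9 to 22.2). Each ratio rests on the Tph1 levels by which the gene was chosen, so its separation is a description and no separate result. The part of mast cells in the Tph1 result was not tested.

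**Figure D4:**
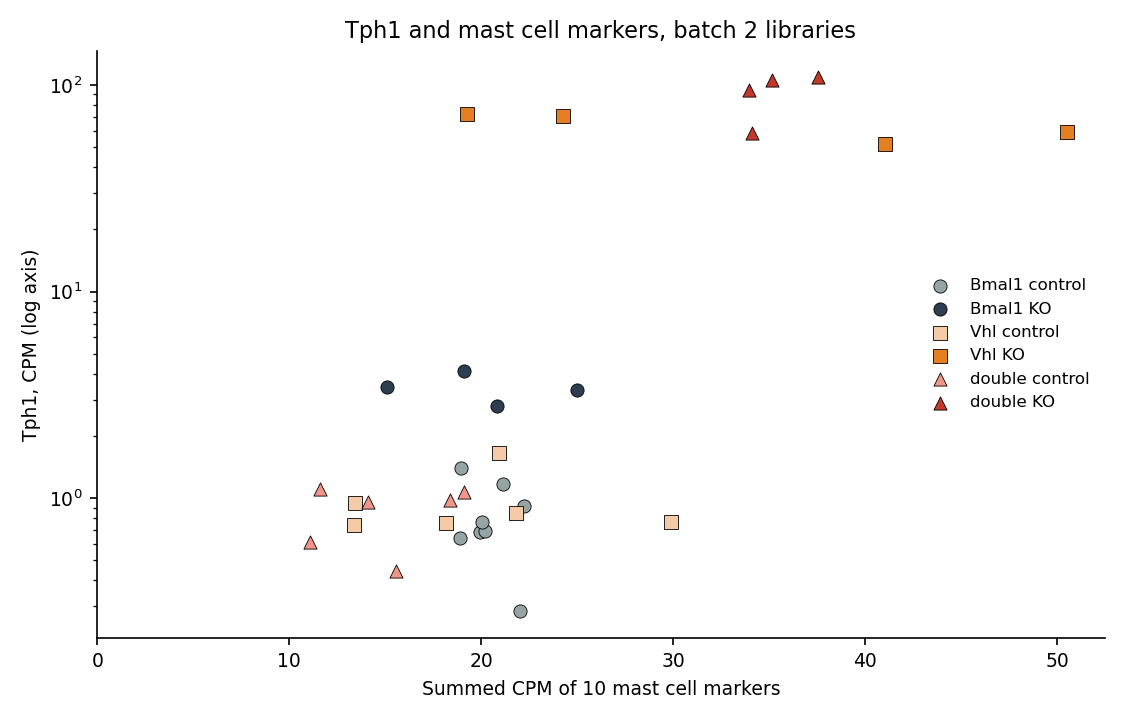
Tph1 level in CPM on a log axis against the summed CPM of 10 mast cell markers, 1 point per library of batch 2; light symbols are floxed controls and dark ones knockouts, with a shape for each line. The VhlKO libraries span marker sums of 19.2 to 50.5 CPM at Tph1 levels of 51.8 to 72.4 CPM, and the control with the highest sum, 29.9 CPM, had 0.764 CPM of Tph1.

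Markers of enteroendocrine cells, the other main source of Tph1 in the body, were summed to at most 1.23 CPM in any library. The 8 markers of denervated muscle fibres were summed to higher levels in knockouts: 113.8 to 136.7 CPM in double knockouts against a mean of 41.3 ± 6.06 (SD, n = 6) in controls, 50.04 to 86.0 in VhlKO against 33.1 to 44.6, and 66.0 to 91.1 in Bmal1KO of batch 2 against 34.3 to 52.8. Of the 7 that passed the filter, 4, 3 and 2 rose in these comparisons, in that order, where 17.4%, 17.7% and 6.94% of all genes rose. Chrna1, which reached 95.7 CPM and weighs most in the sums, had the largest log2 changes (2.69, 1.78 and 1.68). Chrnd, Ncam1 and Gadd45a passed in none of these comparisons. The list medians were 0.56, 0.90 and 0.33 in the same order, against 0.01, 0.01 and -0.01 over all genes. With no scaling 6, 3 and 2 of the 7 rose. In Bmal1KO of batch 1, 2 of 6 rose on high-fat diet and 1 of 6 on chow, where 3.82% and 1.55% of all genes rose. The 7 skeletal muscle markers all fell in VhlKO (median -0.94; 19.5% of all genes fell) and in the double knockout (median -0.75; 18.1% fell), with 5 of 7 in each with no scaling, and with sums of 64510 to 72010 and 73060 to 75200 CPM against 98560 to 121300 in both sets of controls. Platelet markers, of which 3 of 5 passed the filter in batch 2, had 2 that rose in the double knockout (17.4% of all genes) and none in VhlKO (17.7%). With no scaling 2 rose in each. The 2 that rose in the double knockout, Ppbp and Itga2b, passed the filter in batch 2 only, with at most 18 and 19 counts in any library. The group where they were high may have carried them through the filter. Of 6 adipocyte markers 2 fell in VhlKO and 3 in the double knockout, where 19.5% and 18.1% of all genes fell. With no scaling 1 fell in VhlKO, and in the double knockout 1 rose and 1 fell. The part of each of these in the Tph1 result was not tested.

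None of the tested genes next to Tph1 passed in a knockout. On the side of lower coordinates come Sergef, 4834 bases away, then Gm15700 and Gm22969, and on the other side Saal1, 13571 bases away, Saa3 and Saa4. Sergef, Saal1 and Saa3 passed the filter in both batches, and none of them passed the test in any knockout against its control. Over all genes 37.2% were called in VhlKO, 35.4% in the double knockout and 3.84% to 13.9% in the Bmal1KO comparisons, in either direction. With 3 genes, of at most 21, 44 and 35 counts in a library, this cannot be set apart from those shares. In VhlKO the log2 changes were 0.12 ± 0.41 for Sergef (adjusted p = 0.84), 0.37 ± 0.29 for Saal1 (adjusted p = 0.33) and -0.25 ± 0.87 for Saa3 (adjusted p = 0.85). Saa3, an acute-phase serum amyloid A, passed for diet: it had no count in any of the 4 chow controls and 0.733 ± 0.518 CPM in the 7 controls on high-fat diet (adjusted p = 0.025), while Tph1 had the higher level on chow. Gm15700, Gm22969 and Saa4 had at most 3 counts in a library. Arntl, the floxed gene of the Bmal1 lines, lies on the same chromosome, 66.5 Mb away.

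Over the 10 group means, centred within each batch, 2679 genes spanned at least 1 log2 unit, and 32 of them had r above 0.95 with Tph1. The highest were Ablim3, an actin-binding LIM protein (r = 0.989, rho = 0.976), Ache, the acetylcholinesterase of the neuromuscular junction (0.987, 0.927), Gucy1a3, a subunit of the nitric oxide receptor (0.979, 0.952), Nsmce1, a subunit of the SMC5/6 complex (0.977, 0.988), and Trim25, a ubiquitin ligase (0.974, 0.927). The lowest were Tmem17 (r = -0.990), Kdm8 (-0.986) and Unc5a, a netrin receptor (-0.981). These 8 genes spanned from 1.22 to 1.67 log2 units over the groups and Tph1 spanned 6.56, a wider span. Ache, for example, was higher by 1.63 ± 0.15 in VhlKO, 1.64 ± 0.15 in the double knockout and 0.39 ± 0.15 in Bmal1KO of batch 2. The centred means of Tph1 were 3.58 in VhlKO, 4.09 in the double knockout and from -2.47 to 0.74 in the other groups. Likeness over group means thus rests mostly on those 2 groups, and the rest need not be shared. Trim25 differed by 0.05 ± 0.17 in Bmal1KO of batch 2. Within groups, over deviations of the 51 libraries from their group means, likeness was weak: the highest r among 11409 genes were 0.595 for Plcl1, 0.552 for Mob4, 0.542 for Unc45b, 0.539 for Rad17 and 0.528 for Slc15a5, and the lowest was -0.591. These points share libraries, depth and scaling, and no p is given.

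**Figure D5:**
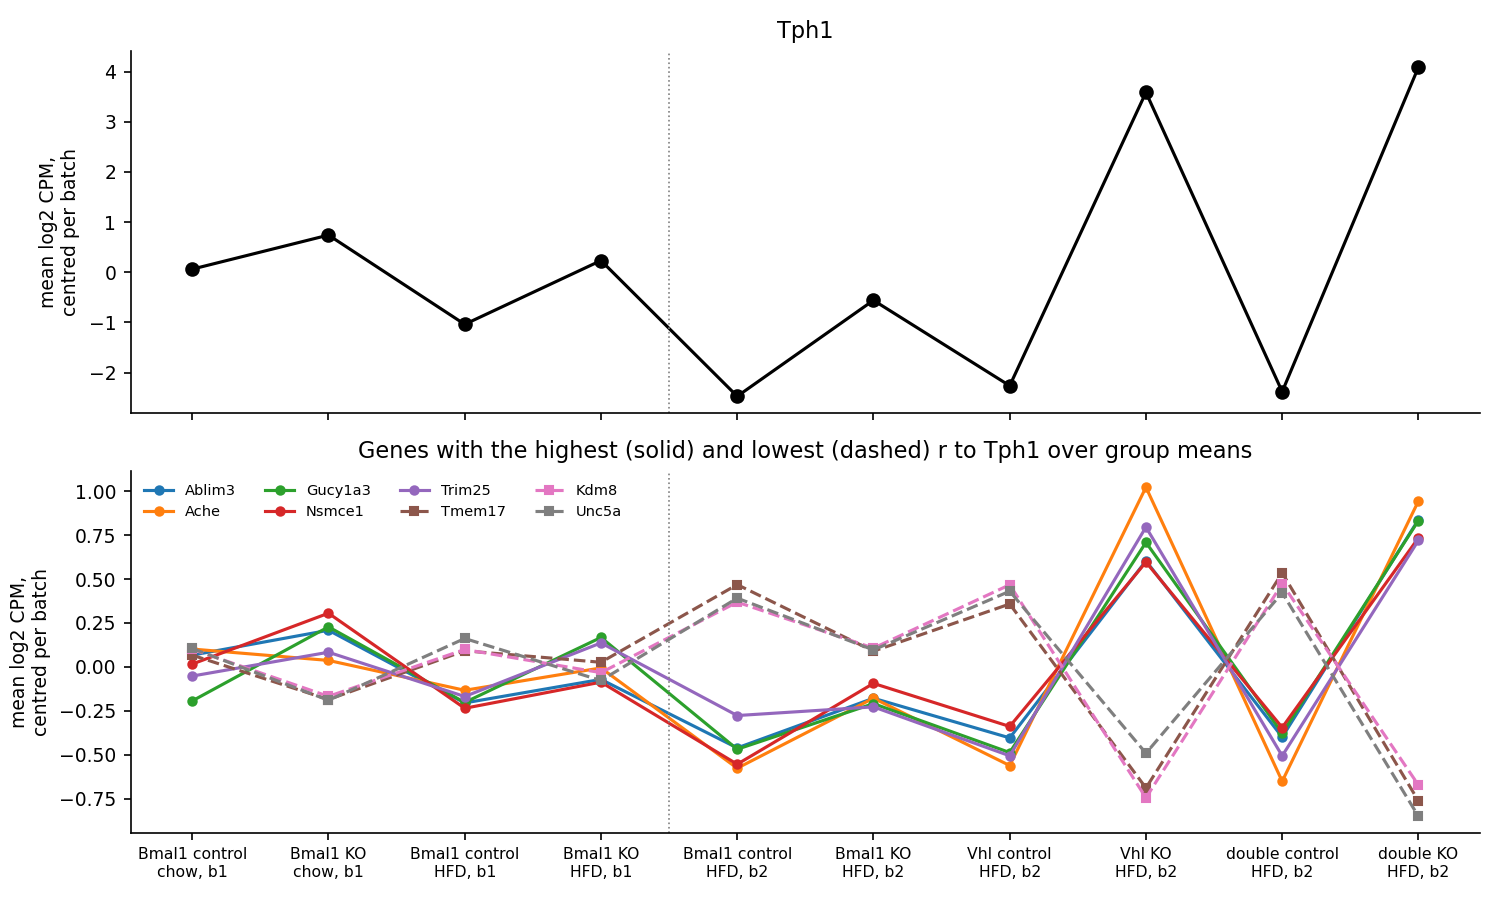
Group means of log2 CPM, centred within each batch (dotted line between batches), for Tph1 (top) and for the 5 genes with the highest and the 3 with the lowest r to it over the 10 group means (bottom); lines only join the points of a gene. Tph1 spans 6.56 log2 units, the other 8 genes 1.22 to 1.67.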

How the data were processed

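Tph1 and the gene lists were chosen with earlier results of these data known, so they give no independent support. Libraries were QuantSeq 3′ forward libraries of gastrocnemius RNA, per the labels' protocols. The authors deposited raw counts for each symbol; the submitters' processing notes name FastQC 0.11.4, STAR 2.6.0, HTSeq without a version, and the builds mm10 and GRCm38.p4. The authors also deposited normalized counts, a signal scaled between libraries, for which the same notes name edgeR 3.26.8; these served in 1 alternative, as log2(value + 1).

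Each batch was fitted on its raw counts with all its groups in 1 model (edgeR 4.0.16 in R 4.3.3; filterByExpr, TMM, robust quasi-likelihood F-test). This left 12762 genes in batch 1 and 13093 in batch 2, and an adjusted p under 0.05 (Benjamini-Hochberg) was called. CPM refer to TMM-scaled library sizes. Likeness used log2 CPM with a prior count of 2, and genes that spanned at least 1 log2 unit. Replicates are numbered animals, per the titles; shared litters are not stated. The fits were tested on simulated data. Sequences are RefSeq's, for GRCm38.p6.

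Named genes were, by rule, Tph2, Ddc, Slc6a4, Maoa and Gch1, up to 4 genes of each list with the smallest p among those called, the 3 nearest genes on each side, the genes most and least like Tph1, and Arntl and Vhl. Cpa3, Hdc and Slc7a8 were chosen after their values were seen. Alternatives were RLE or no scaling, no filter, DESeq2 1.42.0, limma 3.58.1 on the deposited normalized counts, the replicate number as a block, each library left out in turn, CPM of the library total, and the difference of mean CPM for additivity.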

Additional observations from a re-analysis of the deposited data

Results flagged for a closer look

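Animal 1 of the controls (Vhlfx/fx) in batch 2 had 1.66 CPM of Tph1, farther from the other 5 (0.737 to 0.949 CPM) than a group of 6 usually shows. It was the only such library among the 9 groups of 4 to 10 animals looked at, where chance gives about 1 in 20 for each group and more over all of them. The library held 14 tags of Tph1 against 6 to 9 in the other 5, so counting error is large here. Without this library the VhlKO log2 fold change of Tph1 was 6.28 in place of 6.06.

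Hdc, the mast cell enzyme that makes histamine, was the only gene of the named pathway genes and mast cell markers whose effect in the double knockout differed from the sum of both single knockouts (log2 difference 1.72 ± 0.48, adjusted p = 0.033 by edgeR). It lost that call in 7 of the 32 fits that each leave out 1 library, with values of 1.504 to 1.89, and with the replicate block (1.79, adjusted p = 0.2).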

How the results depend on the processing

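Tph1 kept its sign in the knockout and diet comparisons under the alternatives run, except for the departure of the double knockout from the sum, which was 25.8 as a difference of mean CPM. With no scaling the VhlKO change was 6.41; no scaling moved the median of all genes to 0.35 in VhlKO, 0.37 in the double knockout, 0.27 for the double knockout effect minus that of Bmal1 loss, 0.16 in Bmal1KO on high-fat diet and -0.18 for diet in controls. CPM of the library total put the double knockout at 115.2. Spr in VhlKO and Qdpr in the double knockout turned to 0.10 and 0.036 with no scaling.

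The serotonin handling, tetrahydrobiopterin, tryptophan and mast cell lists had 4, 6, 9 and 6 tested genes in batch 1. In batch 2 they had 7, 6, 7 and 6. Of these genes, 2 were called in Bmal1KO on high-fat diet in batch 1, 6 in batch 2 and 1 on chow (9.00%, 13.9% and 3.84% of all genes, either direction). In VhlKO 12 were called, in the double knockout 17 and for the departure 1 (37.2%, 35.4% and 3.79%). For the double knockout effect minus that of Bmal1 or Vhl loss 12 and 4 were called (16.7% and 8.56%), and 0 for diet (2.37% in controls, 3.28% in knockouts). Those counts, in that order up to the last, ran over 1 to 3, 4 to 6, 1 to 2, 8 to 13, 15 to 18, 0 to 3, 8 to 12 and 2 to 6 with each library left out. With no scaling they were 2 on chow and 3 in Bmal1KO of batch 2; with no filter, 3 on chow and 1 for diet in each genotype; with DESeq2 or limma, 2 on chow. The causes were not tested.

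Animals with the same number in their titles did not deviate together (r from -0.29 to 0.16 over 52 pairs, 3 above 0.1). This does not settle whether any were paired. For Bmal1KO and its controls in batch 2 only 2 such pairs existed. Some Bmal1KO animals of batch 2 carry another number in the deposited column names, and that numbering was not checked. With the replicate block Tph1 was at 1.52 in Bmal1KO of batch 2, -0.86 for the departure and 5.22 for the double knockout effect minus that of Bmal1 loss, and the list calls were 1 in Bmal1KO on high-fat diet in batch 1, 2 in batch 2, 0 for the departure and 3 for the double knockout effect minus that of Bmal1 loss; calls over all genes went from 1820 to 598, 496 to 225 and 2191 to 717 in the last 3 of these. Of 50 calls of genes named by rule and mast cell markers, 20 were lost under at least 1 setting. The few Tph1 tags in controls limit the precision of every fold.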
